A study of Mus musculus with 16 samples.

Results

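The genes described here are 44 genes of hepatic stellate cells and of the extracellular matrix that such cells lay down, chosen by symbol. They were read in whole liver of 7-day-old male mice on one-colour Affymetrix arrays. For each gene the probe set annotated with that symbol alone was taken, and where a gene had several, the one with the highest mean over the 16 arrays. This gave 42 measured genes out of 18820 in all. Fbn1 had no probe set under that symbol, and Tgfbr2 was found only on a probe set that carries several symbols, so neither has a value. Col5a1 and Loxl2 each had 2 probe sets. A filter on dim probe sets, tried as an alternative, removed 0 of the 42. Values are log2 signals, so a difference of 1 is a change of 2-fold.

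Each of the 4 genotypes had 4 mice and 1 array per mouse, all on a mixed background of C57/BL6 and SV129Ola. WT animals were littermates that carried the floxed alleles but no Cre. TRAF2/Casp-8LPC-KO mice, called TRAF2/Casp8 KO here, had TRAF2 and caspase-8 deleted by alfp-Cre, a recombinase active in liver parenchymal cells (hepatocytes and cholangiocytes). TRAF2/Casp-8LPC-KO/RIPK3-/- mice, called RIPK3 triple KO, carried in addition a deletion of RIPK3 in the whole body, stellate cells included. TRAF2/Casp-8/IKKbetaLPC-KO mice, called IKKβ triple KO, lacked in addition IKKβ in liver parenchymal cells. All 3 mutant genotypes thus share the deletion of TRAF2 and caspase-8, and none of the 4 lacks RIPK3 or IKKβ alone. By its title the series concerns NF-κB and liver cancer that follows necroptosis, and the comparisons here ask how far the matrix programme of the young liver differed with each deletion.

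Stellate cells lie between hepatocytes and sinusoidal endothelium and store vitamin A when quiescent. When hepatocytes die, growth factors such as TGF-β and PDGF turn them into contractile myofibroblasts, which secrete fibrillar collagens and cross-link them with lysyl oxidases, while tissue inhibitors of metalloproteinases slow the removal of the scar. In the first week after birth the liver is still growing and laying down its normal matrix, and the same genes serve that process.

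Casp8, Ripk3 and Ikbkb were low where the labels say they were deleted, and Traf2 was not. Casp8 lay at 9.76 to 10.07 in WT against 8.50 to 9.11 in the 12 mutant arrays. The 4 RIPK3 triple KO arrays read 4.07 to 4.40 for Ripk3 against 5.62 to 6.42 elsewhere, and Ikbkb read 7.07 to 7.30 in IKKβ triple KO against 7.50 to 8.06 elsewhere. Traf2 lay at 6.21 to 6.40 in WT and at 6.87 to 7.53 in all 12 arrays labelled as lacking it, so every direction drawn below is between arrays labelled as WT or as a mutant. Array medians lay between 4.90 and 5.05, and arrays of a genotype correlated at 0.981 to 0.991. WT replicate 1 stood apart on the second principal component and had the lowest array weight, 0.461. The array names give plate positions. Column 5 held WT (upper rows) and IKKβ triple KO (lower rows), and column 7 held RIPK3 triple KO (upper rows) and TRAF2/Casp8 KO (lower rows). Each genotype thus had its own block of the plate, and the effect of position and that of genotype cannot be told apart. The name of TRAF2/Casp8 KO replicate 4 has the prefix G183, and those of all other arrays have G182. In whole liver, fewer cells of a type and less RNA per cell cannot be told apart.

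Of the 42 measured genes, 4 passed the threshold (limma, Benjamini-Hochberg adjusted p under 0.05 over all probe sets) in at least 1 of the 6 comparisons between genotypes, with 8 calls in total. They were Col6a3, Mmp14, Loxl1 and Lamc1. Of all 18820 genes, 5.54% passed in at least 1 comparison. The other 38 matrix genes, among them Col1a1, Col3a1, Acta2, Timp1, Des and Lrat, passed in none. Of the 8 calls, 3 held when any 1 array of the comparison was left out, which were Col6a3 in TRAF2/Casp8 KO against WT and in IKKβ triple KO against TRAF2/Casp8 KO, and Mmp14 in RIPK3 triple KO against TRAF2/Casp8 KO.

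The promoter stretches of these 2 genes are shown because their calls were the most stable among the 42. Each gives the 250 bases before the start of the RefSeq transcript, 5′ to 3′ on the strand of the gene, from the RefSeq table of build GRCm38.p6. Col6a3 is read from the minus strand at chr1:90843972-90844221 and Mmp14 from the plus strand at chr14:54431348-54431597. Capitals mark every match on either strand to 6 short motifs. For AP-1 the letters searched were TGANTCA, and for NF-κB they were GGGNNNNNCC. For SP1 they were GGGCGG, and for the SMAD factors of TGF-β signalling they were CAGAC. The CCAAT box was searched by its own letters, and the TATA box was searched as TATAAA.
Col6a3: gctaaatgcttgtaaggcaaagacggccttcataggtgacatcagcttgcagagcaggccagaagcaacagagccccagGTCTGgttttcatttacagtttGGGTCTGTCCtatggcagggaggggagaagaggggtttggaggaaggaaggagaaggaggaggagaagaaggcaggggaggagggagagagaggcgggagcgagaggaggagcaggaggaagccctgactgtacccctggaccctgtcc
Mmp14: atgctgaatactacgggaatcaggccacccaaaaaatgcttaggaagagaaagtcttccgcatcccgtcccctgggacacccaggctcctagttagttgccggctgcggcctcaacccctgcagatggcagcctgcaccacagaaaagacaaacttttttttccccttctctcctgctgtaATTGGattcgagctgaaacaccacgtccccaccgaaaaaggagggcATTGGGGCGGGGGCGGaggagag
The Col6a3 stretch held 1 NF-κB match, 149 to 140 bases before the start, and 2 SMAD matches, of which 1 lay inside the NF-κB match. The Mmp14 stretch held 2 SP1 and 2 CCAAT matches, of which 1 CCAAT match shared bases with an SP1 match, and no NF-κB match. Such short motifs are common. NF-κB letters were found in 45.8% of all 32851 promoters of the table and in 67.7% of the 31 promoters of the 29 listed genes it holds. SP1 letters were found in 32.7% and 58.1%, SMAD letters in 42.2% and 45.2%, CCAAT in 33.8% and 38.7%, TATA letters in 12.4% and 12.9%, and AP-1 letters in 6.75% and 3.23%. A match describes the letters of the window and does not locate a bound factor.

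TRAF2/Casp8 KO against WT shows what went with the loss of TRAF2 and caspase-8. Here 1 of the 42 genes was called higher, Col6a3, where 2.17% of all genes were, and 0 were called lower, where 1.14% of all genes were. At an unadjusted p under 0.05 there were 12 of 42 (11 higher and 1 lower), against 16.4% of all genes. The median difference of the 42 genes was 0.16 and 29 of them were positive, against a median of −0.01 over all genes. Without WT replicate 1 the median of the 42 was 0.08, and over all alternatives and fits that left out 1 array it lay between 0.08 and 0.21. The values by gene lay between −0.23 and 0.79.

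RIPK3 triple KO against TRAF2/Casp8 KO shows the added loss of RIPK3. Mmp14 was the 1 gene of 42 called lower, where 0.149% of all genes were, and 0 were called higher, where 0.181% of all genes were. At an unadjusted p under 0.05 there were 7 (1 higher and 6 lower), against 11.1% of all genes. The median difference was −0.02, with 21 genes positive and 21 negative.

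IKKβ triple KO against TRAF2/Casp8 KO shows the added loss of IKKβ in parenchymal cells. Col6a3 was the 1 gene called lower, where 0.903% of all genes were, and 0 were called higher, where 0.117% of all genes were. At an unadjusted p under 0.05 there were 12 (1 higher and 11 lower), against 10.7% of all genes. The median difference was −0.16 and 31 of the 42 were negative, against a median of 0 over all genes. This comparison and that of TRAF2/Casp8 KO with WT share the TRAF2/Casp8 KO arrays, so opposite signs in them are not independent.

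The 3 remaining comparisons link the other pairs of genotypes. RIPK3 triple KO against WT had 2 of 42 called higher (Col6a3 and Loxl1), where 1.94% of all genes were, and 1 called lower (Mmp14), where 1.16% of all genes were, with 14 at an unadjusted p under 0.05 against 15.6% of all genes. IKKβ triple KO against WT had 0 called in either direction by limma and 4 at an unadjusted p under 0.05 (Thy1 and Timp3 higher, Pdgfrb and Loxl2 lower). Of all genes, 0.0266% were called higher, 0.0106% lower and 6.45% had such an unadjusted p. IKKβ triple KO against RIPK3 triple KO had 1 called higher (Mmp14), where 0.627% of all genes were, and 1 called lower (Lamc1), where 1.38% of all genes were, with 16 at an unadjusted p under 0.05 against 16.7% of all genes. The medians of the 42 genes in these 3 comparisons were 0.07, −0.03 and −0.16. Without WT replicate 1 the first was 0.02 and the second −0.12, and without WT replicate 2 they were 0.16 and 0.01.

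**Figure D1:**
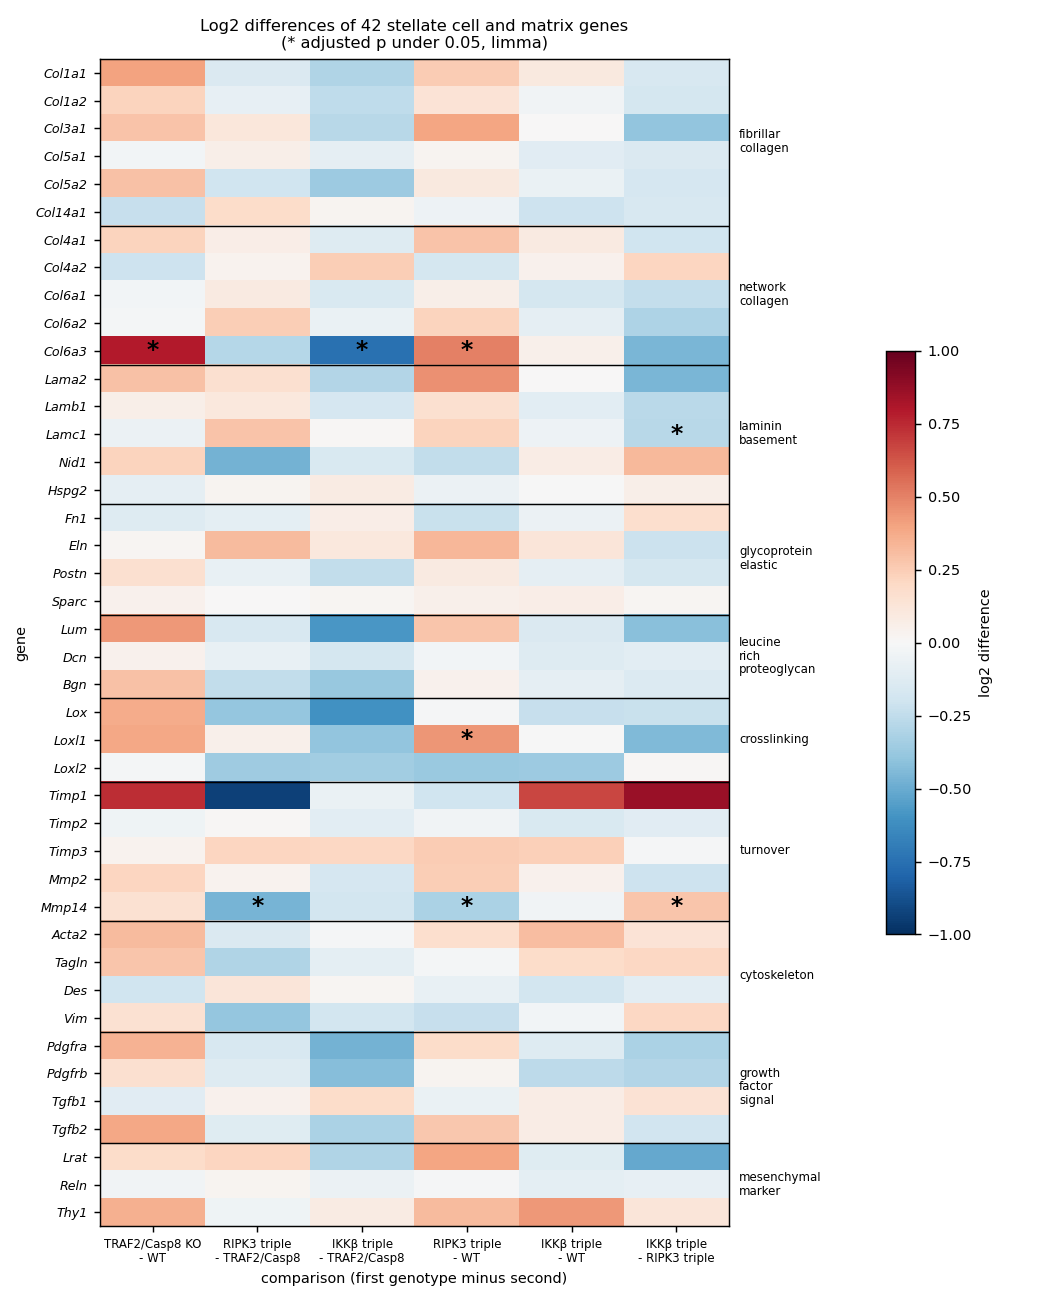
Log2 differences of the 42 measured genes (rows, ordered by role) in the 6 comparisons between genotypes (columns), on a colour scale from −1 (blue) to 1 (red); stars mark adjusted p under 0.05. The 8 stars fall on Col6a3, Mmp14, Loxl1 and Lamc1, and Timp1 has deep colours with no star.

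Col6a3 encodes the largest chain of type VI collagen, a beaded filament network around cells. Its signals (probe set 10356520) were 6.61, 7.19, 7.08 and 6.98 in WT and 7.97, 7.59, 7.75 and 7.72 in TRAF2/Casp8 KO. They were 7.52, 7.50, 7.47 and 7.40 in RIPK3 triple KO and 7.16, 7.03, 6.96 and 6.90 in IKKβ triple KO. The 4 TRAF2/Casp8 KO arrays were the highest of the 16, the 4 RIPK3 triple KO arrays came next, and WT and IKKβ triple KO overlapped below both. The 8 high arrays are those of plate column 7.

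Col6a3 rose in TRAF2/Casp8 KO over WT by a log2 difference of 0.79 ± 0.12 (SE, n = 4 in each group, 95% interval 0.55 to 1.04, 1.73-fold, limma adjusted p = 0.00144). It fell in IKKβ triple KO relative to TRAF2/Casp8 KO by 0.74 (95% interval −0.99 to −0.50, 1.67-fold, adjusted p = 0.00531). Both calls held in all 10 alternatives and with each array of the comparison left out, with adjusted p up to 0.0353 for the first and 0.031 for the second. The rise in RIPK3 triple KO over WT was 0.51 (1.42-fold, adjusted p = 0.0328), and that call was lost without WT replicate 3 or 4 or without RIPK3 triple KO replicate 1, 2 or 3, with adjusted p up to 0.079. Between RIPK3 triple KO and TRAF2/Casp8 KO the difference of −0.28 did not pass (95% interval −0.53 to −0.04, adjusted p = 0.42), and neither did the 0.05 between IKKβ triple KO and WT (95% interval −0.20 to 0.29, adjusted p = 0.98).

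The other measured chains of type VI collagen were called in 0 of the 6 comparisons. Col6a1 had a mean of 7.30 ± 0.22 in WT (± SD, n = 4, as for all such values here) and of 7.28 ± 0.08 in TRAF2/Casp8 KO, and Col6a2 was 6.26 ± 0.22 and 6.24 ± 0.07. Type IV collagen forms the sheet of basement membranes. Its Col4a1 chain was 7.62 ± 0.05 in WT, 7.84 ± 0.16 in TRAF2/Casp8 KO, 7.71 ± 0.08 in IKKβ triple KO and 7.91 ± 0.02 in RIPK3 triple KO, with an adjusted p of 0.0795 for RIPK3 triple KO against WT. Col4a2, transcribed from the same locus in the other direction, was 7.28 ± 0.08 in WT and 7.08 ± 0.15 in TRAF2/Casp8 KO, a difference of −0.21 that did not pass either (adjusted p = 0.293). In IKKβ triple KO against RIPK3 triple KO all 5 network collagens had an unadjusted p under 0.05 (1 higher and 4 lower) and 0 were called by limma.

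**Figure D2:**
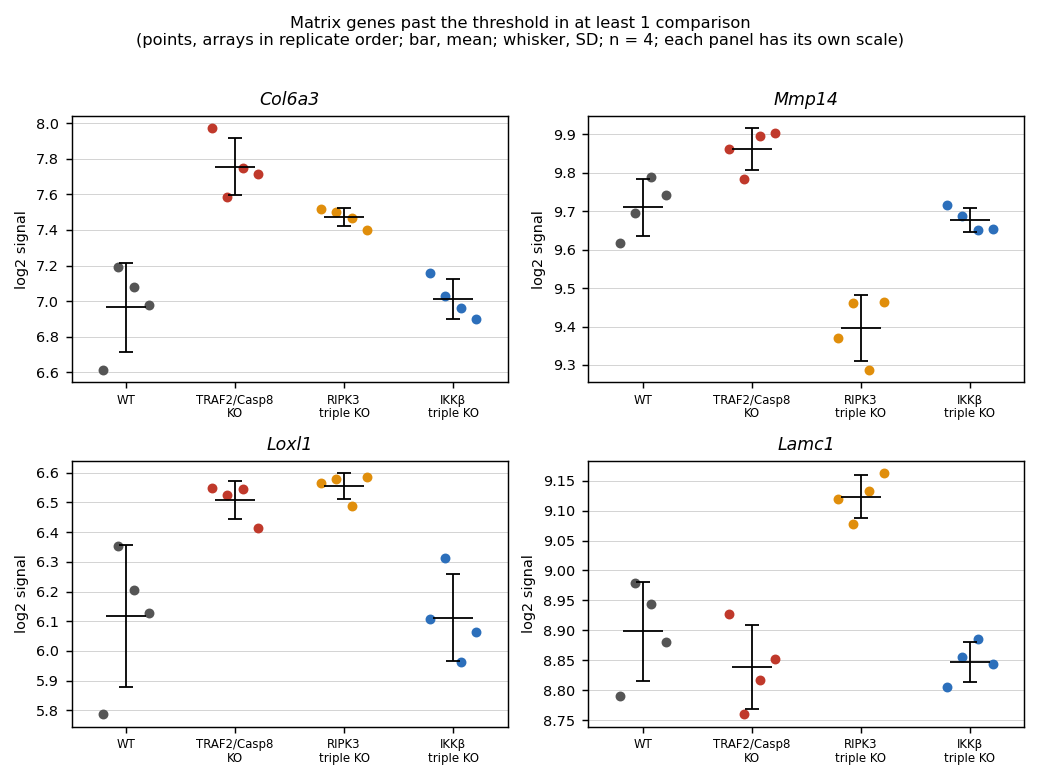
Log2 signal of Col6a3, Mmp14, Loxl1 and Lamc1 on each array (points) by genotype, with the mean (bar) and SD (whisker) of 4 arrays; each panel has its own vertical scale. Col6a3 and Loxl1 were higher in arrays of TRAF2/Casp8 KO and of RIPK3 triple KO than in those of WT and IKKβ triple KO, while in RIPK3 triple KO all 4 arrays of Mmp14 were the lowest and all 4 of Lamc1 the highest of the 16.

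Fibrillar collagens make the tensile fibres of the matrix and of scars. Col14a1, which does not itself form fibrils, was counted with them, and 0 of these 6 genes were called in any comparison. In TRAF2/Casp8 KO against WT their median difference was 0.25, with 4 of 6 positive (all but Col5a1 and Col14a1) and 2 at an unadjusted p under 0.05. In IKKβ triple KO against TRAF2/Casp8 KO it was −0.27, with 5 of 6 negative (all but Col14a1) and 1 at such a p. Between IKKβ triple KO and RIPK3 triple KO all 6 differences were negative, from −0.39 to −0.15, with 1 at such a p, as in RIPK3 triple KO against WT.

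Col1a1, a chain of type I collagen and the usual readout of fibrogenesis, had signals of 8.25, 9.03, 8.67 and 8.46 in WT and 8.90, 9.07, 8.94 and 9.11 in TRAF2/Casp8 KO. It had 9.08, 8.55, 8.69 and 9.11 in RIPK3 triple KO and 8.82, 8.74, 8.52 and 8.73 in IKKβ triple KO. WT replicate 2 lay inside the TRAF2/Casp8 KO range, so those groups overlapped, while all IKKβ triple KO arrays lay below all TRAF2/Casp8 KO arrays. The TRAF2/Casp8 KO difference from WT was 0.40 (95% interval 0.07 to 0.74, adjusted p = 0.247) and that of IKKβ triple KO from TRAF2/Casp8 KO was −0.30 (95% interval −0.64 to 0.03, adjusted p = 0.605).

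Col1a2, the partner chain of Col1a1, read 8.31, 9.03, 8.83 and 8.65 in WT and 8.96, 8.86, 8.96 and 8.91 in TRAF2/Casp8 KO. It read 8.96, 8.67, 8.74 and 8.98 in RIPK3 triple KO and 8.80, 8.72, 8.47 and 8.68 in IKKβ triple KO. The WT arrays spanned more than the other genotypes and enclosed the TRAF2/Casp8 KO values. The difference of TRAF2/Casp8 KO from WT was 0.22 (95% interval −0.06 to 0.50, adjusted p = 0.495).

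Col3a1, the collagen of fine reticular fibres, read 8.83, 9.70, 9.36 and 9.12 in WT and 9.61, 9.53, 9.61 and 9.38 in TRAF2/Casp8 KO. It read 9.80, 9.64, 9.50 and 9.65 in RIPK3 triple KO and 9.60, 9.14, 8.96 and 9.32 in IKKβ triple KO. All groups overlapped WT. Its difference was 0.28 for TRAF2/Casp8 KO against WT (95% interval −0.07 to 0.63, adjusted p = 0.483) and 0.39 for RIPK3 triple KO against WT (95% interval 0.05 to 0.74, adjusted p = 0.281). Col5a2, a chain of type V collagen that sits in the core of type I fibres, was 6.44 ± 0.21 in WT and 6.73 ± 0.17 in TRAF2/Casp8 KO (adjusted p = 0.26), and Col5a1 was 6.82 ± 0.12 and 6.79 ± 0.06. Col14a1, which binds to the surface of fibrils, was 9.65 ± 0.21 in WT and 9.42 ± 0.10 in TRAF2/Casp8 KO.

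The fibrillar collagens and Col14a1 deviated together within WT. WT replicate 1 lay below the WT mean in 6 of 6 of these genes, by 0.28 on average, and WT replicate 4 in 6 of 6, by 0.11, while WT replicate 2 lay above it in 6 of 6, by 0.31. Over all 42 genes WT replicate 1 was below its genotype mean in 33 and WT replicate 2 in 8. WT replicate 1 also had the highest summed levels of macrophage markers (mean log2 of 10 genes 9.89, against 8.87 to 8.88 in the other WT arrays) and of neutrophil markers (9.90 against 8.41 to 8.79). Their part in the collagen values was not tested.

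Laminins, nidogen and perlecan build the basement membrane, and of the 5 measured Lamc1 alone was called. Lamc1, the γ chain shared by most laminins (probe set 10358816), read 8.79, 8.98, 8.94 and 8.88 in WT and 8.93, 8.76, 8.82 and 8.85 in TRAF2/Casp8 KO. It read 9.12, 9.08, 9.13 and 9.16 in RIPK3 triple KO and 8.81, 8.86, 8.89 and 8.84 in IKKβ triple KO. The 4 RIPK3 triple KO arrays were the highest of the 16 and the other genotypes overlapped.

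Lamc1 fell in IKKβ triple KO relative to RIPK3 triple KO by 0.28 (95% interval −0.41 to −0.14, 1.21-fold, adjusted p = 0.0464). That call was lost whichever of the 8 arrays was left out, with adjusted p up to 0.119. The difference of RIPK3 triple KO from TRAF2/Casp8 KO was 0.28 as well and did not pass (adjusted p = 0.106). Lama2, the α chain of laminin-2, was 6.24 ± 0.26 in WT, 6.54 ± 0.25 in TRAF2/Casp8 KO, 6.24 ± 0.21 in IKKβ triple KO and 6.70 ± 0.18 in RIPK3 triple KO. Its difference of 0.45 between RIPK3 triple KO and WT had an adjusted p of 0.162.

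Nid1, which ties laminin to type IV collagen, was 10.11 ± 0.15 in WT, 10.33 ± 0.14 in TRAF2/Casp8 KO, 10.18 ± 0.19 in IKKβ triple KO and 9.86 ± 0.11 in RIPK3 triple KO. The RIPK3 triple KO arrays did not overlap those of TRAF2/Casp8 KO, but the difference of −0.48 did not pass (95% interval −0.71 to −0.24, adjusted p = 0.108). Lamb1, the laminin β chain, had differences from WT of 0.06 in TRAF2/Casp8 KO and 0.16 in RIPK3 triple KO, and Hspg2, which encodes perlecan, was 8.54 ± 0.08 in WT and 8.45 ± 0.21 in TRAF2/Casp8 KO.

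The 4 glycoprotein and elastic fibre genes had 0 calls by limma, with 2 at an unadjusted p under 0.05 in RIPK3 triple KO against WT and 1 in IKKβ triple KO against TRAF2/Casp8 KO. Fn1, which encodes fibronectin and is made in quantity by hepatocytes too, was 12.62 ± 0.11 in WT, 12.50 ± 0.08 in TRAF2/Casp8 KO, 12.57 ± 0.03 in IKKβ triple KO and 12.40 ± 0.15 in RIPK3 triple KO. Sparc, a collagen-binding protein of remodelling matrix, had a TRAF2/Casp8 KO difference from WT of 0.05 (95% interval −0.13 to 0.22). Eln, the elastin gene, was 7.95 ± 0.27 in WT and 8.28 ± 0.11 in RIPK3 triple KO, and Postn, which encodes periostin, was 9.49 ± 0.27 in WT and 9.66 ± 0.15 in TRAF2/Casp8 KO.

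Small leucine-rich proteoglycans coat collagen fibrils, and 0 of the 3 measured were called. All 3 were positive in TRAF2/Casp8 KO against WT and negative in IKKβ triple KO against TRAF2/Casp8 KO, with 2 at an unadjusted p under 0.05 in each. There was 1 at such a p in each comparison of RIPK3 triple KO with another mutant and 0 in those of RIPK3 or IKKβ triple KO with WT. Lum, which encodes lumican, was 6.93 ± 0.36 in WT, 7.36 ± 0.21 in TRAF2/Casp8 KO, 6.78 ± 0.21 in IKKβ triple KO and 7.20 ± 0.19 in RIPK3 triple KO. Its difference was 0.43 for TRAF2/Casp8 KO against WT (adjusted p = 0.244) and −0.58 for IKKβ triple KO against TRAF2/Casp8 KO (95% interval −0.94 to −0.22, adjusted p = 0.186). Bgn, which encodes biglycan, had differences of 0.29 and −0.38 in the same comparisons (adjusted p = 0.235 and 0.19), and Dcn, which encodes decorin, of 0.05 and −0.17.

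Lysyl oxidases cross-link collagen and elastin and so stiffen the matrix, and Loxl1 was the 1 called of 3. Loxl1 (probe set 10594066) read 5.79, 6.35, 6.20 and 6.13 in WT and 6.55, 6.53, 6.54 and 6.41 in TRAF2/Casp8 KO. It read 6.57, 6.58, 6.49 and 6.59 in RIPK3 triple KO and 6.11, 6.31, 5.96 and 6.07 in IKKβ triple KO. All arrays of TRAF2/Casp8 KO and RIPK3 triple KO lay above all arrays of WT and IKKβ triple KO, again a split that follows the plate columns.

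Loxl1 rose in RIPK3 triple KO over WT by 0.44 ± 0.11 (SE, n = 4 in each group, 95% interval 0.21 to 0.67, 1.35-fold, limma adjusted p = 0.0474). The call was lost in 7 of the 8 fits that left out 1 array, all but the one without WT replicate 2, with adjusted p up to 0.107. The other differences of similar size did not pass, with 0.39 for TRAF2/Casp8 KO against WT (adjusted p = 0.0763) and −0.44 for IKKβ triple KO against RIPK3 triple KO (adjusted p = 0.052). Lox, the founding member of the family, was 5.71 ± 0.20 in WT, 6.09 ± 0.15 in TRAF2/Casp8 KO, 5.48 ± 0.29 in IKKβ triple KO and 5.70 ± 0.20 in RIPK3 triple KO. Its difference of −0.60 between IKKβ triple KO and TRAF2/Casp8 KO (95% interval −0.92 to −0.29, adjusted p = 0.0953) passed without IKKβ triple KO replicate 2 (adjusted p = 0.0479). Loxl2 was 7.06 ± 0.08 in WT and 7.04 ± 0.47 in TRAF2/Casp8 KO, where replicate 4 read 7.69, and its second probe set was not called in any comparison either.

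Matrix turnover is set by metalloproteinases and their inhibitors, and Mmp14 was the 1 called of 5. Mmp14, a membrane-bound collagenase that also activates the MMP2 proenzyme (probe set 10415052), read 9.62, 9.69, 9.79 and 9.74 in WT and 9.86, 9.79, 9.90 and 9.90 in TRAF2/Casp8 KO. It read 9.37, 9.46, 9.29 and 9.47 in RIPK3 triple KO and 9.72, 9.69, 9.65 and 9.65 in IKKβ triple KO. The 4 RIPK3 triple KO arrays were the lowest of the 16.

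Mmp14 fell in RIPK3 triple KO relative to TRAF2/Casp8 KO by 0.47 (95% interval −0.61 to −0.32, 1.38-fold, limma adjusted p = 0.00743, n = 4 in each group). The call held with each of the 8 arrays left out (adjusted p up to 0.0372) and was lost in a model of these 2 genotypes alone (adjusted p = 0.101). Mmp14 also fell in RIPK3 triple KO relative to WT, by 0.31 (1.24-fold, adjusted p = 0.0227), a call lost without WT replicate 2, 3 or 4 or without RIPK3 triple KO replicate 1 or 3. It rose in IKKβ triple KO over RIPK3 triple KO by 0.28 (1.21-fold, adjusted p = 0.0498), a call lost whichever of the 8 arrays was left out. Neutrophil markers were low in the same genotype. The mean of 10 such genes lay at 6.68 to 8.59 in RIPK3 triple KO, 8.03 to 9.32 in TRAF2/Casp8 KO, 8.41 to 9.90 in WT and 8.30 to 9.33 in IKKβ triple KO, with 0 of 10 called by limma in any comparison and 10 of 10 at an unadjusted p under 0.05 against WT. The part of neutrophils in the Mmp14 difference was not tested.

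Timp1, the inhibitor most often induced in injured liver, was the most variable of the 42 genes, with a pooled SD of 0.74 against a median of 0.16 over the 42. It read 5.53, 4.69, 4.33 and 4.35 in WT and 5.34, 5.02, 5.04 and 6.45 in TRAF2/Casp8 KO. It read 4.38, 4.42, 4.84 and 4.49 in RIPK3 triple KO and 4.06, 5.84, 6.79 and 4.90 in IKKβ triple KO. All TRAF2/Casp8 KO arrays lay above all RIPK3 triple KO arrays. WT replicate 1, at 5.53, and TRAF2/Casp8 KO replicate 4, at 6.45, were the highest of their genotypes. The IKKβ triple KO arrays spread from 4.06 to 6.79.

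The Timp1 difference was 0.74 for TRAF2/Casp8 KO against WT (95% interval −0.28 to 1.75, adjusted p = 0.542) and −0.93 for RIPK3 triple KO against TRAF2/Casp8 KO (95% interval −1.95 to 0.08, adjusted p = 0.538). These intervals are too wide to tell a difference of several-fold from none. Timp2 and Timp3, which encode further inhibitors, had TRAF2/Casp8 KO differences from WT of −0.05 and 0.04. Mmp2, a gelatinase made by stellate cells, was 8.07 ± 0.46 in WT and 8.28 ± 0.29 in TRAF2/Casp8 KO.

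The contractile and filament genes that mark myofibroblasts had 0 calls of 4 by limma, and 1 of them (Vim in RIPK3 triple KO against TRAF2/Casp8 KO) had an unadjusted p under 0.05 in any comparison. Acta2, smooth muscle α-actin and the standard myofibroblast marker, read 7.93, 9.45, 8.75 and 8.43 in WT and 8.62, 8.64, 9.23 and 9.34 in TRAF2/Casp8 KO. It read 9.82, 8.15, 8.24 and 9.04 in RIPK3 triple KO and 8.34, 9.69, 8.99 and 8.77 in IKKβ triple KO. Animals of 1 genotype differed by more than the genotype means did, and all 4 genotypes overlapped. The TRAF2/Casp8 KO difference from WT was 0.32 (95% interval −0.52 to 1.15, adjusted p = 0.789).

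Des, the desmin gene of stellate and muscle cells, read 6.03, 6.53, 6.12 and 6.05 in WT and 5.95, 6.05, 5.87 and 6.05 in TRAF2/Casp8 KO. It read 6.53, 5.90, 5.91 and 6.08 in RIPK3 triple KO and 6.01, 6.41, 6.09 and 5.50 in IKKβ triple KO. The groups overlapped, and the TRAF2/Casp8 KO difference from WT was −0.20 (95% interval −0.59 to 0.18, adjusted p = 0.694). Tagln, an actin-binding protein of smooth muscle, was 6.59 ± 0.28 in WT and 6.87 ± 0.23 in TRAF2/Casp8 KO, and Vim, the vimentin gene, 9.85 ± 0.25 and 10.01 ± 0.21. WT replicate 2, RIPK3 triple KO replicate 1 and IKKβ triple KO replicate 2 were high together in this group, by 0.41, 0.45 and 0.42 over their genotype means.

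Growth factor genes and receptors had 0 calls of 4 by limma. At an unadjusted p under 0.05 there was 1 in TRAF2/Casp8 KO and 1 in IKKβ triple KO against WT. There were 2 in IKKβ triple KO against TRAF2/Casp8 KO, 2 in IKKβ triple KO against RIPK3 triple KO, and 0 in the other two comparisons. Pdgfrb, the PDGF receptor that drives stellate cell division, read 7.98, 7.73, 7.70 and 7.56 in WT and 7.98, 7.68, 7.90 and 8.06 in TRAF2/Casp8 KO. It read 7.67, 7.82, 7.66 and 7.95 in RIPK3 triple KO and 7.67, 7.46, 7.41 and 7.37 in IKKβ triple KO. IKKβ triple KO arrays lay below all TRAF2/Casp8 KO arrays, with a difference of −0.43 (95% interval −0.66 to −0.19, adjusted p = 0.122), and the TRAF2/Casp8 KO difference from WT was 0.16 (95% interval −0.07 to 0.40, adjusted p = 0.571).

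Pdgfra, its sister receptor, was 6.98 ± 0.20 in WT, 7.33 ± 0.12 in TRAF2/Casp8 KO, 6.85 ± 0.21 in IKKβ triple KO and 7.17 ± 0.01 in RIPK3 triple KO. Its differences of 0.34 for TRAF2/Casp8 KO against WT (adjusted p = 0.156) and −0.48 for IKKβ triple KO against TRAF2/Casp8 KO (adjusted p = 0.0856) did not pass. Tgfb2 was 5.21 ± 0.23 in WT and 5.59 ± 0.32 in TRAF2/Casp8 KO (adjusted p = 0.399). Tgfb1, the chief fibrogenic ligand, was 8.71 ± 0.26 in WT and 8.60 ± 0.16 in TRAF2/Casp8 KO.

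The 3 mesenchymal markers among the 42 had 0 calls by limma. At an unadjusted p under 0.05 there were 2 in RIPK3 triple KO against WT, 0 in RIPK3 triple KO against TRAF2/Casp8 KO and 1 in each of the other 4 comparisons. Lrat, which esterifies vitamin A for storage, read 8.49, 8.79, 8.63 and 8.63 in WT and 9.02, 8.59, 8.91 and 8.75 in TRAF2/Casp8 KO. It read 8.73, 9.01, 9.40 and 8.99 in RIPK3 triple KO and 8.64, 8.66, 8.44 and 8.34 in IKKβ triple KO. All RIPK3 triple KO arrays lay above all IKKβ triple KO arrays, and that difference of −0.51 (95% interval −0.80 to −0.23, adjusted p = 0.0738) passed without RIPK3 triple KO replicate 1 (adjusted p = 0.04).

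Reln, which encodes reelin and in liver is made by stellate cells, read 9.73, 10.22, 10.29 and 10.36 in WT and 10.21, 10.20, 10.14 and 9.91 in TRAF2/Casp8 KO. It read 9.98, 10.26, 10.21 and 10.11 in RIPK3 triple KO and 10.20, 10.08, 9.98 and 9.96 in IKKβ triple KO. The 4 genotypes overlapped, with WT replicate 1 lowest of all, and the TRAF2/Casp8 KO difference from WT was −0.04 (95% interval −0.30 to 0.23, adjusted p = 0.946). Thy1, a marker of portal fibroblasts and of T cells, was 4.92 ± 0.21 in WT, 5.27 ± 0.17 in TRAF2/Casp8 KO, 5.36 ± 0.26 in IKKβ triple KO and 5.23 ± 0.12 in RIPK3 triple KO. Its difference of 0.44 between IKKβ triple KO and WT had an adjusted p of 0.619.

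**Figure D3:**
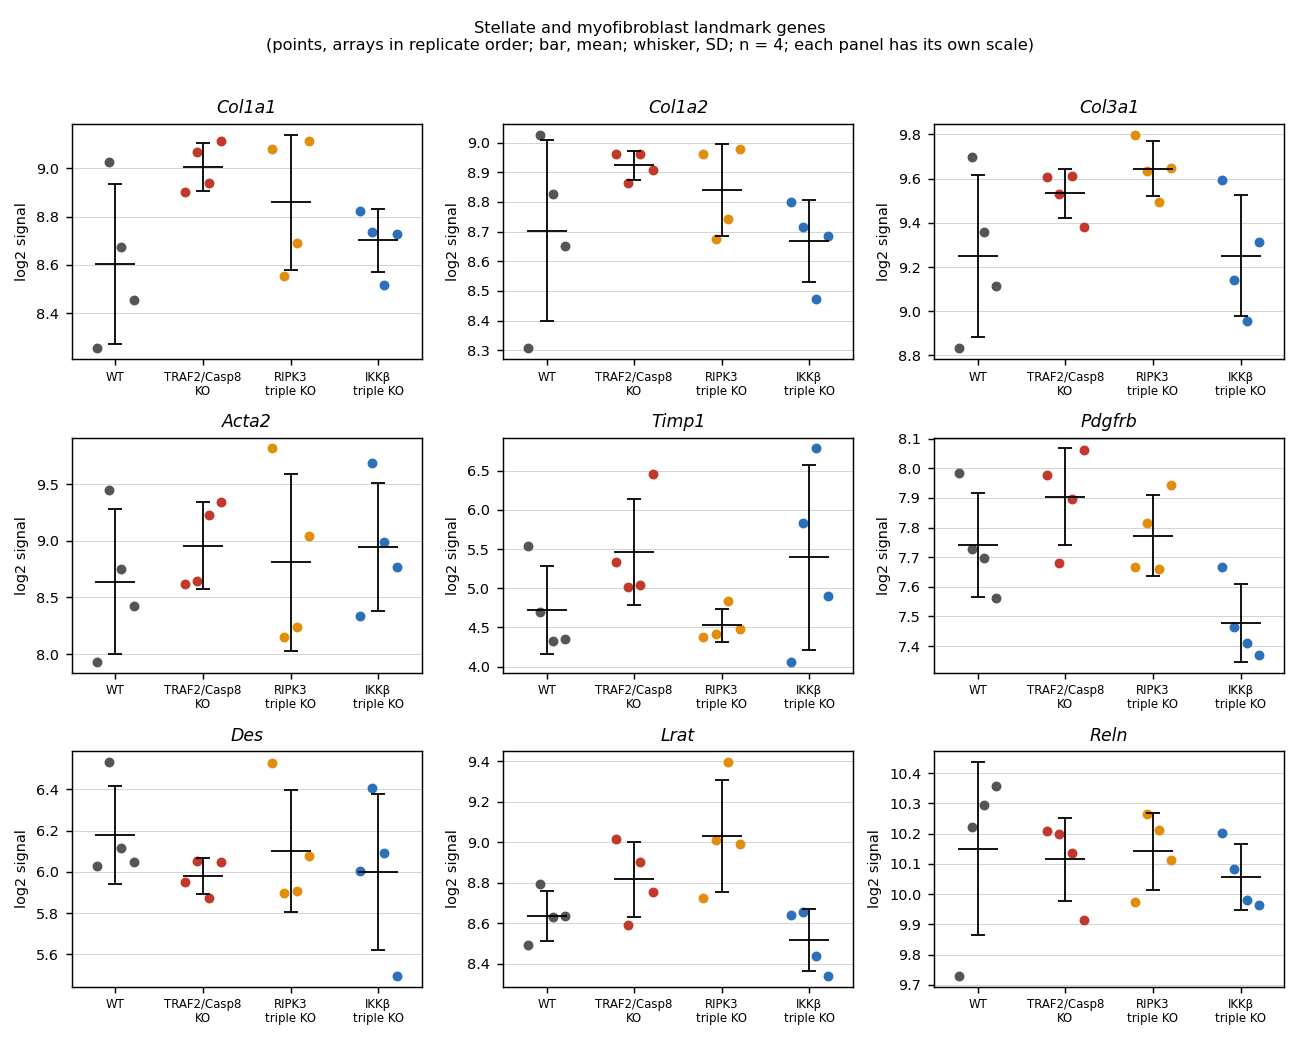
Log2 signal of 9 landmark genes of stellate cells and myofibroblasts on each array (points) by genotype, with the mean (bar) and SD (whisker) of 4 arrays; each panel has its own vertical scale. The genotypes overlapped in most panels and no gene passed the threshold; Acta2 and Timp1 spread over more than 1 log2 unit within a genotype.

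**Figure D4:**
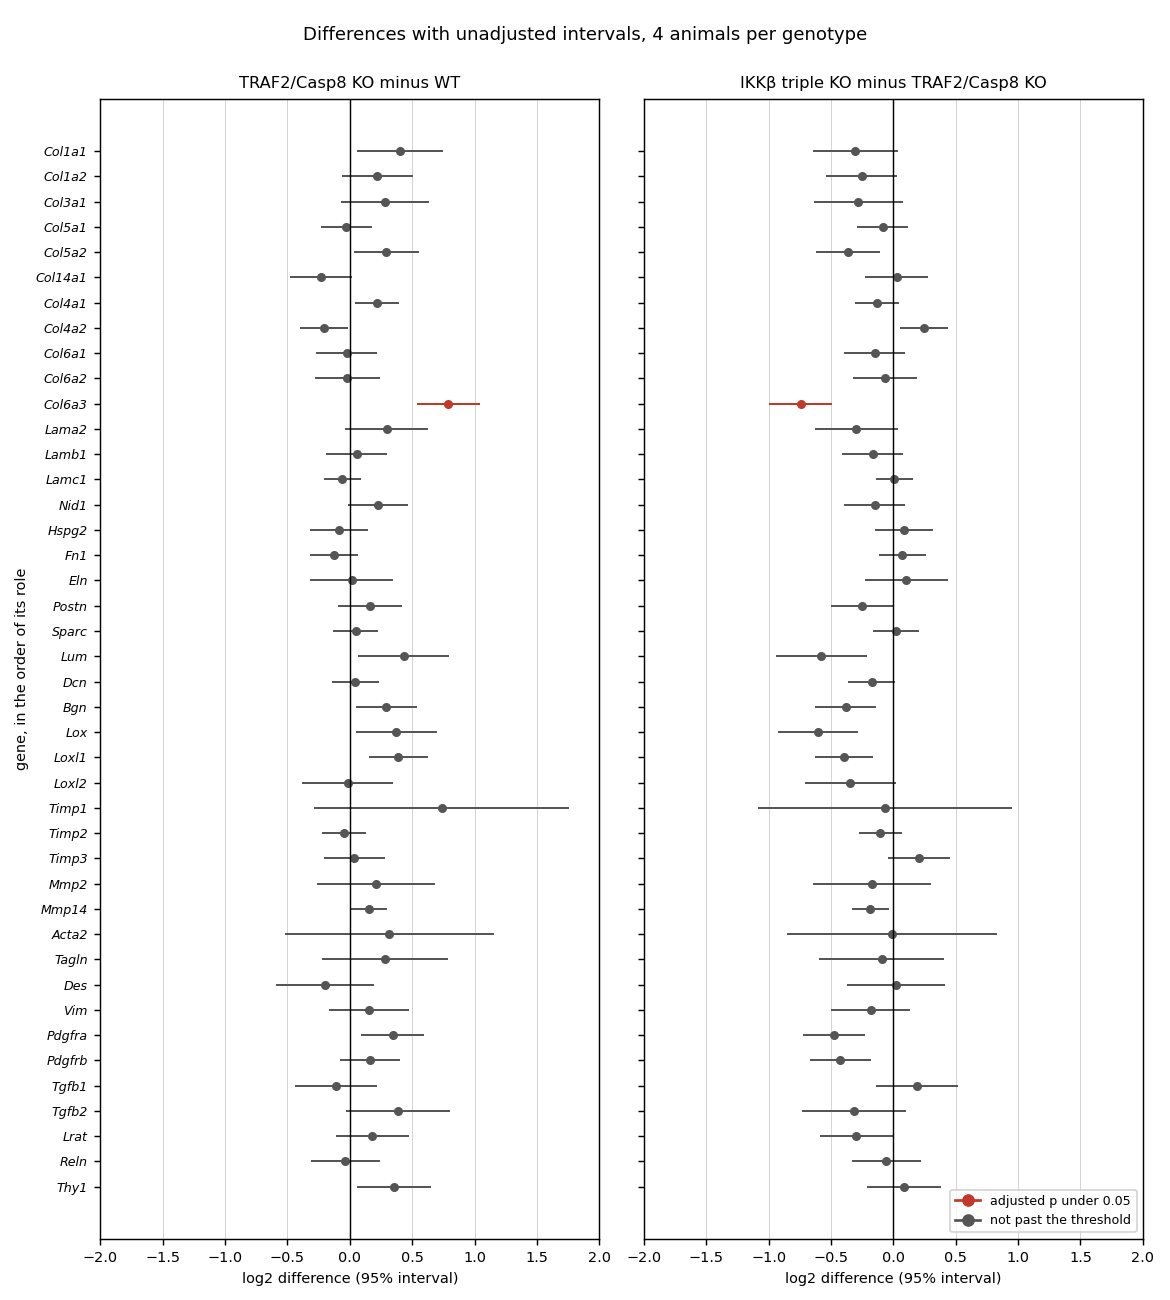
Log2 differences of the 42 genes with unadjusted 95% intervals, for TRAF2/Casp8 KO against WT (left) and IKKβ triple KO against TRAF2/Casp8 KO (right), 4 animals per genotype; genes past the threshold are red. Col6a3 is the 1 red gene on each side, at 0.79 and −0.74, and the intervals of Timp1 and Acta2 are the widest.

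Genes of the same pathways that are not among the 44 were read in 7 further lists, beside the same shares of all genes as above. In TRAF2/Casp8 KO against WT the calls, all higher, were 3 of 14 integrins, 3 of 19 TGF-β pathway genes, 2 of 10 other basement membrane genes, 1 of 16 collagen processing genes, 1 of 18 other collagens, 1 of 18 matrix turnover genes and 1 of 5 PDGF pathway genes. In IKKβ triple KO against TRAF2/Casp8 KO the calls, all lower, were 3 integrins and 1 gene each of TGF-β pathway, PDGF pathway, collagen processing and other collagens. In RIPK3 triple KO against TRAF2/Casp8 KO and in IKKβ triple KO against WT the 7 lists had 0 calls by limma. At an unadjusted p under 0.05 each list had 2 to 6 genes in the former and 0 to 3 in the latter. In RIPK3 triple KO against WT 2 integrins and 2 basement membrane genes (Agrn and Lamb3) were called higher. So was 1 gene each of collagen processing, other collagens and TGF-β pathway. Called lower there were 2 matrix turnover genes, 1 integrin and 1 collagen processing gene. The Agrn call in this comparison was lost whichever of the 8 arrays was left out, and the Lamb3 call in 6 of the 8 fits. The Lamb3 call in TRAF2/Casp8 KO against WT was lost in 5 of 8. In IKKβ triple KO against RIPK3 triple KO Itgb8, Ltbp2, Col5a3 and Plod1 were called lower and Pcolce2 higher. Of the 8 fits that left out 1 array, the Itgb8 call was lost in 7, that of Col5a3 in 6 and that of Pcolce2 in 2. The calls of Ltbp2 and Plod1 were lost in 0.

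The integrins called bind matrix or release TGF-β from its latent complex. Itgb8, whose product with the αv chain activates latent TGF-β, read 4.11, 4.30, 4.04 and 4.00 in WT, 6.25, 5.22, 5.70 and 6.38 in TRAF2/Casp8 KO, 5.28, 5.14, 5.50 and 5.02 in RIPK3 triple KO and 4.22, 4.42, 4.42 and 4.33 in IKKβ triple KO. It rose 3.42-fold in TRAF2/Casp8 KO over WT (log2 1.77 ± 0.20 SE, adjusted p = 0.000148) and fell 2.91-fold in IKKβ triple KO relative to TRAF2/Casp8 KO (adjusted p = 0.00122). Itga2, a collagen receptor chain, rose 2.76-fold in the first comparison (adjusted p = 0.000231) and fell 2.57-fold in the second (adjusted p = 0.00113). Itgav, the αv chain, rose 1.62-fold (adjusted p = 0.00427) and fell 1.51-fold (adjusted p = 0.0305), the latter call being lost without any 1 of 6 of the 8 arrays. In RIPK3 triple KO against WT 2 of the 14 integrins were called higher and 1 lower. Itgb8 rose there 2.18-fold (adjusted p = 0.00713), a call that held with each of the 8 arrays left out, and Itga2 rose 1.62-fold (adjusted p = 0.049994), a call lost whichever of the 8 was left out. Itga6, a laminin receptor chain, fell in RIPK3 triple KO relative to WT by 0.72 (adjusted p = 0.0179) and lost that call without WT replicate 2, 3 or 4 or RIPK3 triple KO replicate 1.

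Among ligands and their carriers, Pdgfb, which encodes the ligand of the PDGF receptor β, rose 2.69-fold in TRAF2/Casp8 KO over WT (log2 1.43 ± 0.18 SE, adjusted p = 0.000374). It fell 2.35-fold in IKKβ triple KO relative to TRAF2/Casp8 KO (adjusted p = 0.00264), while its receptor genes were not called. Ltbp2, a matrix protein of the latent TGF-β binding family, rose 1.61-fold in TRAF2/Casp8 KO (adjusted p = 0.00417) and 1.80-fold in RIPK3 triple KO (adjusted p = 0.000916) over WT. It fell 1.56-fold in IKKβ triple KO relative to TRAF2/Casp8 KO (adjusted p = 0.0161), a call lost without TRAF2/Casp8 KO replicate 3 or IKKβ triple KO replicate 3. Ccn2, the connective tissue growth factor gene and a TGF-β and YAP target, rose in TRAF2/Casp8 KO by 0.80 (adjusted p = 0.0392), and Tgfbr1, a TGF-β receptor, by 0.51 (adjusted p = 0.0324). Each of these 2 calls was lost in 7 of the 8 fits that left out 1 array.

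Genes that build or modify matrix proteins also held calls. P4ha3, a collagen prolyl hydroxylase subunit, rose 2.19-fold in TRAF2/Casp8 KO over WT (adjusted p = 0.00682) and fell 2.15-fold in IKKβ triple KO relative to it (adjusted p = 0.0171), the latter call being lost in 5 of the 8 fits that left out 1 array. Col5a3, the third chain of type V collagen, rose 1.57-fold in TRAF2/Casp8 KO (adjusted p = 0.000967) and 1.51-fold in RIPK3 triple KO (adjusted p = 0.00227) over WT. It was called lower in IKKβ triple KO relative to TRAF2/Casp8 KO (limma adjusted p = 0.0273). That call was lost in 6 of the 8 fits that left out 1 array and held in 7 of the 10 alternatives. Agrn, the basement membrane proteoglycan agrin, rose 1.43-fold in TRAF2/Casp8 KO (adjusted p = 0.00206), and Plat, the tissue plasminogen activator gene, rose 1.76-fold (adjusted p = 0.00452). Plod1, a collagen lysyl hydroxylase, rose in RIPK3 triple KO over WT by 0.62 (adjusted p = 0.00561), and Pcolce2, an enhancer of procollagen cleavage, fell by 1.16 (adjusted p = 0.0112). Mmp8, the neutrophil collagenase, fell in RIPK3 triple KO relative to WT by 1.57 (adjusted p = 0.049), a call lost in 7 of the 8 fits that left out 1 array.

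**Figure D5:**
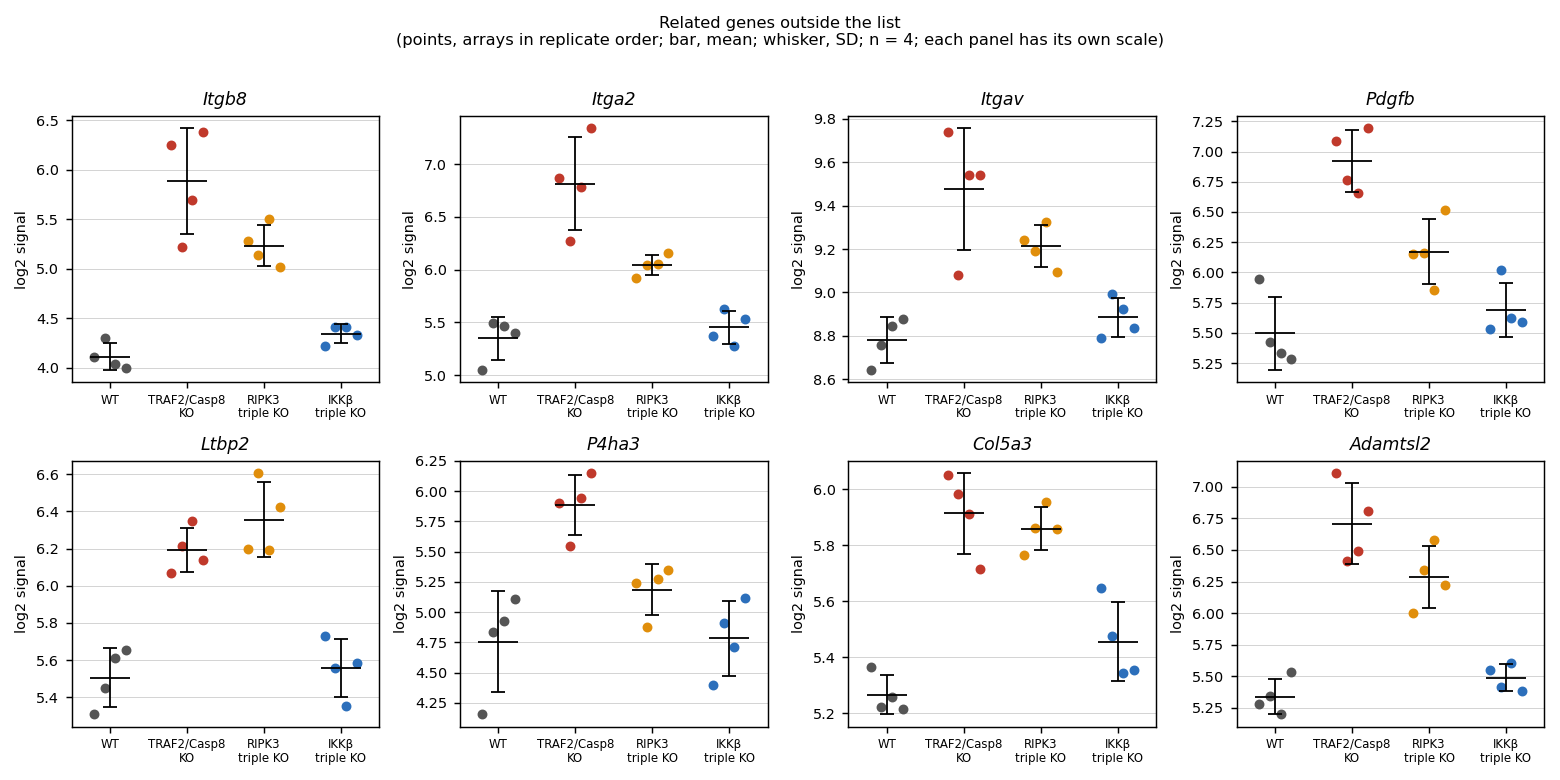
Log2 signal of 8 genes outside the list (7 of matrix pathways and Adamtsl2 of the stellate marker list) on each array (points) by genotype, with the mean (bar) and SD (whisker) of 4 arrays; each panel has its own vertical scale. In the 7 lists of matrix pathways and the stellate marker list, the 8 shown are those called higher in TRAF2/Casp8 KO against WT and lower in IKKβ triple KO against TRAF2/Casp8 KO. Their rise and fall in these comparisons therefore follows from how they were chosen. The biliary markers Cldn4, Cldn7 and Sox9 were called in the same way and are not shown.

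Markers of the cell types that whole liver holds were read for comparison. Of 13 measured markers of quiescent stellate cells, 5 were positive and 8 negative in TRAF2/Casp8 KO against WT (median −0.08). At an unadjusted p under 0.05 there were 8 (5 higher and 3 lower), against 16.4% of all genes. In IKKβ triple KO against TRAF2/Casp8 KO 6 were positive and 7 negative (median −0.04), with 5 at such a p (all lower), against 10.7% of all genes. Adamtsl2 rose 2.58-fold in the first of these comparisons (adjusted p = 0.000125) and fell 2.33-fold in the second (adjusted p = 0.000913). It encodes a secreted matrix protein that binds latent TGF-β complexes. Colec10, a lectin gene of stellate cells, fell in TRAF2/Casp8 KO by 0.44 (adjusted p = 0.0392), and Rgs5, a gene of pericytes and stellate cells, rose in RIPK3 triple KO over WT by 1.16 (adjusted p = 0.0132). Ngfr, a neurotrophin receptor gene, fell in IKKβ triple KO relative to TRAF2/Casp8 KO by 0.74 (adjusted p = 0.0484), a call lost in 6 of the 8 fits that left out 1 array. The Colec10 call was lost in 7 of the 8 fits that left out 1 array. In RIPK3 triple KO against TRAF2/Casp8 KO 8 of the 13 were positive and 5 negative. At an unadjusted p under 0.05 there were 7 (5 higher and 2 lower), against 11.1% of all genes. In RIPK3 triple KO against WT 9 were positive and 4 negative, and in IKKβ triple KO against RIPK3 triple KO 2 were positive and 11 negative. Adamtsl2 and Rgs5 were called higher in the former, where 1.94% of all genes were, and lower in the latter, where 1.38% were. The mean of the 13 markers lay at 7.37 to 7.56 in WT, 7.53 to 7.75 in TRAF2/Casp8 KO, 7.24 to 7.53 in IKKβ triple KO and 7.60 to 7.73 in RIPK3 triple KO. Of 12 smooth muscle, 12 sinusoidal endothelial, 10 macrophage and 5 erythroid markers, 0 were called by limma in any comparison, and in each comparison at most 2 of a list had an unadjusted p under 0.05.

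Some markers of biliary cells were called in the same comparisons as Col6a3. Of 8 measured in TRAF2/Casp8 KO against WT, 6 were positive and 2 negative (median 0.67), and 4 were called higher, where 2.17% of all genes were. These 4 rose as follows, Cldn4 (3.40-fold, adjusted p = 0.000656), Cldn7 (2.55-fold, adjusted p = 0.000186), Sox9 (2.48-fold, adjusted p = 0.000147) and Epcam (1.73-fold, adjusted p = 0.0187), and the Epcam call was lost without WT replicate 3 or TRAF2/Casp8 KO replicate 1. In IKKβ triple KO against TRAF2/Casp8 KO, 6 of the 8 were negative and 2 positive (median −0.47). Cldn4, Cldn7 and Sox9 fell there, where 0.903% of all genes were called lower. The Cldn4 call was lost without TRAF2/Casp8 KO replicate 1 or 4 or IKKβ triple KO replicate 3 (adjusted p up to 0.0541) and in a model of only these 2 genotypes (adjusted p = 0.12). Cldn7 also fell in RIPK3 triple KO relative to TRAF2/Casp8 KO (log2 difference −1, adjusted p = 0.0117), a comparison in which Col6a3 did not pass, and that call was lost without TRAF2/Casp8 KO replicate 4 or RIPK3 triple KO replicate 3. In RIPK3 triple KO against WT all 8 were positive (median 0.49). Epcam and Sox9 were called higher there, where 1.94% of all genes were. The Epcam call was lost in 6 of the 8 fits that left out 1 array, and the Sox9 call in none. The mean of the 8 biliary markers lay at 4.51 to 4.73 in WT, 5.29 to 5.38 in TRAF2/Casp8 KO, 4.53 to 5.08 in IKKβ triple KO and 5.10 to 5.23 in RIPK3 triple KO. Krt19 is on both the biliary list and that of 11 portal fibroblast and mesothelial markers. Of these 11, 5 were positive and 6 negative in TRAF2/Casp8 KO against WT (median −0.14). Entpd2 was the 1 called, and it rose 1.90-fold (adjusted p = 0.000827). Of 9 hepatocyte markers, 1 was positive and 8 negative in TRAF2/Casp8 KO against WT (median −0.1). Asgr1 was the 1 called, where 1.14% of all genes were called lower, and it fell by 0.41 (adjusted p = 0.0422). Against WT, 1 was positive and 8 negative in IKKβ triple KO (median −0.07), and 4 were positive and 5 negative in RIPK3 triple KO, with 0 called in either. Hepatocyte markers lay at a mean of 11.90 to 12.12 in WT and 11.78 to 12.04 in TRAF2/Casp8 KO. The part of these cell types in the differences of Col6a3 and of the related genes was not tested.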

How the data were processed

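RNA of 16 livers was measured on Affymetrix arrays, 1 for each animal. The input was 100 ng, with RNA integrity values above 8.0, per the labels' protocols. The deposited values are log2 signals made by the authors with RMA, per the submitters' processing notes. The RMA version is not given in the sources used here. Values ran from 0.89 to 13.65. All 16 value columns were used without further normalisation or filter. Precision is limited by the 4 arrays per genotype.

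All 35556 probe sets were fitted together, with 1 mean for each of the 4 genotypes, by limma's lmFit and eBayes (version 3.58.1, no trend, R 4.3.3). Tests were two-sided, and Benjamini-Hochberg adjustment ran over the whole array, with a threshold of 0.05. Gene names came from the platform annotation and were updated through gene identifiers; 21218 probe sets carry 1 symbol. The script was tested on simulated data.

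The listed genes, the related lists and the marker lists were chosen with earlier results of these data known. Values of each array are given for genes past the threshold in any comparison and for 9 landmarks (Lrat, Reln, Des, Pdgfrb, Acta2, Col1a1, Col1a2, Col3a1, Timp1). Of each related list, up to 4 genes with the smallest adjusted p in a comparison were named, and for marker lists the called genes. Promoter sequences came from RefSeq (GRCm38.p6); Lamc1 and Loxl1 are not in that table. Alternatives were 9 other settings (intensity trend with robust eBayes, only the 2 genotypes compared, no dim probe sets, centring, quantile normalisation, mean of a gene's probe sets, array weights, replicate block, plate row as random block), each array left out in turn, and 1 fit without 2 arrays that was chosen after seeing the data. Python 3.11.15 with matplotlib 3.10.9 made the figures.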

Additional observations from a re-analysis of the deposited data

Results flagged for a closer look

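In 3 of 168 groups of 4 arrays (42 genes in 4 genotypes) the highest or lowest array stood apart from the other arrays of its genotype by more than Dixon's 95% critical value, where chance flags about 1 in 20 groups. Col4a2 in TRAF2/Casp8 KO replicate 3 read 6.855, below 7.133 in the nearest array. Postn in IKKβ triple KO replicate 2 read 9.543, above 9.365 in the nearest. Tgfb1 in WT replicate 1 read 9.096, above 8.624 in the nearest, in the array with the highest macrophage and neutrophil marker levels.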

How the results depend on the processing

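The 10 alternatives and the fits that left out 1 array turned the direction of no called gene. The calls of Col6a3 in TRAF2/Casp8 KO against WT and in IKKβ triple KO against TRAF2/Casp8 KO held in all of them. Counts past the threshold moved as follows, and the cause was not tested. TRAF2/Casp8 KO against WT went from 1 to 2 with the mean of all probe sets of a gene. RIPK3 triple KO against TRAF2/Casp8 KO went from 1 to 0 in a model of only these 2 genotypes and to 2 with arrays centred on their medians. IKKβ triple KO against TRAF2/Casp8 KO went from 1 to 3 with the mean of all probe sets and to 5 with array weights. RIPK3 triple KO against WT went from 3 to 0 with only 2 genotypes, to 0 with the replicate block, to 1 without WT replicate 1 and TRAF2/Casp8 KO replicate 4 (chosen after seeing the data), and to 2 with the intensity trend or array weights. IKKβ triple KO against RIPK3 triple KO went from 2 to 0 with only 2 genotypes, 0 with the replicate block, 1 with plate row as a random block, 4 without the dimmest probe sets or with centring, and 5 with quantile normalisation, the mean of all probe sets or array weights. IKKβ triple KO against WT stayed at 0 throughout. Leaving out 1 array gave 1 to 2 for TRAF2/Casp8 KO against WT (2 without WT replicate 2), 1 to 2 for IKKβ triple KO against TRAF2/Casp8 KO (2 without IKKβ triple KO replicate 2), 0 to 3 for RIPK3 triple KO against WT and 0 to 1 for IKKβ triple KO against RIPK3 triple KO. For same-numbered animals of the genotypes compared, the deviations from the genotype means were correlated over all genes. These correlations were mixed (−0.23 to 0.36), and in no comparison were all 4 above 0.1. In IKKβ triple KO against TRAF2/Casp8 KO 3 were, at 0.17 to 0.19. The main fit did not take the numbers as pairs, while the replicate block grouped same-numbered animals. The median difference of the 42 genes moved by less than the spread between arrays (SD 0.091), but its sign changed for RIPK3 triple KO against TRAF2/Casp8 KO (−0.02 to 0.04 with centring) and for IKKβ triple KO against WT (−0.03 to 0.01 without WT replicate 2). With 4 animals per genotype and a wide spread, differences of Timp1 and Acta2 below several-fold cannot be resolved.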
